A study of Mus musculus with 16 samples.

Results

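The genes described here were 8 testis-specific forms of enzymes and carriers of energy metabolism: Ldhc, Pgk2, Gapdhs, Pdha2, Aldoart1, Aldoart2, Cyct and Cox6b2. They were taken by name from the GENCODE vM21 annotation of the mm10 mouse genome, and they were 8 of the 21938 protein-coding genes on the autosomes, X and Y. The study profiled chromatin in haploid spermatids of KO males, in which all 3 X-linked genes of the short histone variant H2A.B had been disrupted (ΔH2A.B, 1 mutant strain), and of their WT brothers. All males were on a C57BL/6J background after backcrossing, were 2 months old and had not been mated. The cells were sorted alive from dissociated testes by DNA content with Hoechst and propidium iodide, so each library averages over the haploid stages in that gate. AutoCUT&RUN, in which an antibody tethers a nuclease that cuts out the bound chromatin, was run with antibodies to H3K4me3, H3K27me3 and H3K9me3 and with a nonspecific IgG, in 2 KO and 2 WT libraries for each. Replicate 1 and replicate 2 were each a KO and WT sibling pair. The p-values below measure the spread between libraries of the same target and genotype, and leave the pairing out unless stated. The labels also carry a different date-like prefix for each replicate number, shared by its KO and WT libraries. The labels do not say what the prefix stands for, and it cannot be told apart from the pair. Fewer cells carrying a mark and less of the mark in each cell cannot be told apart in such data.

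Spermatids and sperm carry their own versions of several metabolic proteins. Pgk1 and Pdha1 lie on the X chromosome, which is silenced in male meiosis, and Pgk2 and Pdha2 are autosomal copies of them that arose by reverse transcription of spliced RNA and therefore lack introns. Ldhc and Gapdhs encode sperm lactate dehydrogenase and the sperm glyceraldehyde-3-phosphate dehydrogenase, which is anchored to the fibrous sheath of the tail, where glycolysis supplies ATP for motility. H3K4me3 typically lies at starts of active genes, H3K27me3 at genes held silent by Polycomb, and H3K9me3 in constitutive heterochromatin.

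Only distinct fragments were counted, that is, each combination of chromosome, start and end once per library. A level is the number of distinct fragments whose midpoint lay within 1 kb of the annotated gene start, scaled to counts per 1000000 distinct fragments of the library (CPM). The libraries held between 784360 and 3394830 distinct fragments for H3K4me3, 200457 to 3806026 for H3K27me3, 5009169 to 6746382 for H3K9me3 and 159611 to 270598 for IgG. The H3K27me3 library of WT replicate 2 stood apart as the shallowest of any mark. In the 4 H3K4me3 libraries the summed level was 103 to 147 CPM over 8 spermatid markers, 2.06 to 17.8 CPM over 6 spermatogonia markers and 1.27 to 3.53 CPM over 10 markers of testis somatic and blood cells. For H3K27me3 the order turned round, with 0 to 9.68 CPM over the spermatid markers against 110 to 241 and 121 to 210 CPM over the other lists. The summed marker levels therefore followed the spermatid label against these lists, which did not include one for meiotic spermatocytes. At the annotated starts 7 of the 8 spermatid markers were above the median of all genes for H3K4me3.

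The sequences just before the starts of the members with the highest H3K4me3 levels are shown first, because the reads at those starts are what the following values count. Each runs 5′ to 3′ over the 250 bases before the RefSeq start in the GRCm38.p6 (mm10) assembly. Capitals mark matches, on either strand, to TGACGTCA (the cAMP response element), to TGACG (contained in TGACGTCA), to GGGCGG (the GC box), to CCAAT or to TATAAA. RefSeq promoter entries were found for 7 of the 8 members. Ldhc is shown before the first of its RefSeq starts, from chr7:46861013-46861262 (plus strand), Pgk2 from chr17:40208610-40208859 (minus strand) and Pdha2 from chr3:141212356-141212605 (minus strand).
Ldhc: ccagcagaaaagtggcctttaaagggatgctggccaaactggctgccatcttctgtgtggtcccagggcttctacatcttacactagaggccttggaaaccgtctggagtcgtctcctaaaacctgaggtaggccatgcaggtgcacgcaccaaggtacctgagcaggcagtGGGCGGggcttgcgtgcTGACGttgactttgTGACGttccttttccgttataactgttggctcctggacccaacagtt
Pgk2: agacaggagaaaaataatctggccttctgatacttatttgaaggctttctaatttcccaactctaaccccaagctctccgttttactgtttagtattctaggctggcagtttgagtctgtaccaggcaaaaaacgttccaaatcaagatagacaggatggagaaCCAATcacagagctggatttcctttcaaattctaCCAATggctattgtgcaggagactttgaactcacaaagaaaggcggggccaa
Pdha2: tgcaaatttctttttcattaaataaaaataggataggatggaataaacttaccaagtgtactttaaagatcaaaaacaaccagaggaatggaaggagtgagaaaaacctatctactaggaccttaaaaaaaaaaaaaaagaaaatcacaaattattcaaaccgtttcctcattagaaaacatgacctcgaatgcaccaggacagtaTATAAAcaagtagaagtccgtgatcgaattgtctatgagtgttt

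Ldhc held 1 GGGCGG, beginning 78 bases before the start, and 2 copies of TGACG, beginning 61 and 47 bases before it. The other RefSeq start of Ldhc, 284 bp downstream of the GENCODE start, held none of the words in its 250 bases, and the mean H3K4me3 level was 35.1 CPM around it and 33.8 CPM around the first. Pgk2 held 2 copies of CCAAT, 86 and 52 bases before its start, and Pdha2 held TATAAA 44 bases before its start. Of all 32851 RefSeq promoter entries, 17.8% held TGACG in the same 250 bases, 32.7% GGGCGG, 33.8% CCAAT and 12.4% TATAAA, so each of these words is common. TGACGTCA, present in 1.55% of the entries, was in none of the upstream sequences of the 7 members with an entry.

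Gapdhs is also annotated with a pair of RefSeq starts, 4274 bp apart, and their upstream sequences are partly the same. The first is chr7:30743682-30743931 and the second chr7:30739408-30739657, both on the minus strand. Here capitals mark runs of 12 or more identical bases in the same order. The 4 runs add up to 148 of the 250 bases and the longest is 59 bases.
Gapdhs, first start: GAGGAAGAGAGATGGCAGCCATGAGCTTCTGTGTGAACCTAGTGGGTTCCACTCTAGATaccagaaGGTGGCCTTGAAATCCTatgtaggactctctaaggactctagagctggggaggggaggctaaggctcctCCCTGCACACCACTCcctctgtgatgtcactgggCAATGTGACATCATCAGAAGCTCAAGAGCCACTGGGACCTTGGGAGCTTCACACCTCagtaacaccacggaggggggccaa
Gapdhs, second start: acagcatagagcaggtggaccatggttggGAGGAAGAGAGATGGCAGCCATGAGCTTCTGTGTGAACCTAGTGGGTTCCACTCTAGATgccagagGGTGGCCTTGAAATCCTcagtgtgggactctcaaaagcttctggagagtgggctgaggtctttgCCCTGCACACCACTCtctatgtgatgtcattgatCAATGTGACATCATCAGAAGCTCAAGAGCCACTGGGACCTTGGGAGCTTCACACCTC
The reads were 25 bases long at each end, and only 55.3% of the 25-base words within 1 kb of the first Gapdhs start occurred once in the genome. A read that lies wholly within a shared run at least 25 bases long cannot be placed by its own sequence. Around the start Gapdhs therefore had the most uncertain placement among the members, followed by Aldoart1 with 72.9% unique words and Aldoart2 with 81.0%. In the other 5 members the share was between 91.2% for Pdha2 and 100% for Cox6b2. Over the gene bodies Aldoart1 was lowest with 66.5%, followed by Gapdhs with 82.0%.

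The members differ in structure and in their surroundings. Pgk2 (ENSMUSG00000031233.6, chr17:40207015-40208640, minus strand), Pdha2 (ENSMUSG00000047674.2, chr3:141210004-141212355, minus), Aldoart1 (ENSMUSG00000059343.4, chr4:72850583-72852634, minus) and Aldoart2 (ENSMUSG00000063129.1, chr12:55565239-55566896, plus) each have 1 exon. Ldhc (ENSMUSG00000030851.15, chr7:46861203-46878142, plus) has up to 8 exons and Gapdhs (ENSMUSG00000061099.12, chr7:30729775-30743681, minus) has 11. Cyct (ENSMUSG00000056436.4, chr2:76353942-76360450, minus) has 4 exons and Cox6b2 (ENSMUSG00000051811.14, chr7:4751792-4753094, minus) has 3 or 4. No other annotated gene lay within 1 kb of the starts of 6 members. The Gapdhs start lies inside the antisense genes Tmem147os and Gm26935, and the Cox6b2 start is 132 bp from the end of Fam71e2, so fragments there cannot be assigned to a gene. All 8 starts were below the median gene in CpG, some of them only slightly. The ratio of observed to expected CpG within 500 bp of the start ran from 0.102 for Gapdhs to 0.514 for Aldoart2, against a median of 0.552 over all genes. Of all genes, 8.31% had a lower ratio than Gapdhs and 47.3% a lower one than Aldoart2.

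H3K4me3 was present at all 8 starts and was highest at Ldhc, Gapdhs, Pgk2 and Pdha2. At Ldhc, the sperm lactate dehydrogenase, the 4 libraries held 49 and 144 fragments in KO and 21 and 61 in WT, or 36.4, 42.4, 26.8 and 28.0 CPM. The mean was 39.4 ± 4.29 CPM in KO and 27.4 ± 0.845 in WT (SD, n = 2 each), and 99.0% of all protein-coding genes had a lower mean over the 4 libraries. Both KO libraries were above both WT libraries.

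At Gapdhs the levels were 37.1 and 38.9 CPM in KO and 16.6 and 27.5 in WT, with means of 38.0 ± 1.26 and 22.0 ± 7.73 CPM (SD, n = 2 each). The genotypes again did not overlap, and the WT siblings were further apart from each other than the KO siblings. Around the second Gapdhs start the 4 libraries held 47, 102, 18 and 57 fragments, a mean of 28.5 CPM against 30.02 CPM around the first, so the mark covered both copies of the shared sequence as far as the reads can be placed.

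Pgk2, the sperm phosphoglycerate kinase, had 32.6 and 29.8 CPM in KO and 20.4 and 32.1 CPM in WT. Its genotypes overlapped, with WT replicate 1 alone at the low end. Pdha2, the testis E1 alpha subunit of pyruvate dehydrogenase, had 28.2 and 35.9 CPM in KO and 21.7 and 26.1 CPM in WT, and there both KO libraries were the higher ones. The means over 4 libraries of these 4 members, 33.4 ± 7.38 CPM for Ldhc, 30.02 ± 10.3 for Gapdhs, 28.7 ± 5.69 for Pgk2 and 28.0 ± 5.96 for Pdha2 (SD, n = 4), differed by less than their spread. That spread takes in both genotypes. Compared library by library, only the order of Ldhc above Pdha2 held in every library.

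The remaining members were lower. Aldoart1 and Aldoart2, intronless testis copies of the glycolytic enzyme aldolase A, had means of 17.01 ± 7.35 and 17.5 ± 3.02 CPM over 4 libraries. Aldoart1 differed mainly by replicate, with 20.8 and 25.5 CPM in replicate 1 of KO and WT and 10.3 and 11.5 CPM in replicate 2. Aldoart2 had 20.8 and 18.9 CPM in KO and 16.6 and 13.8 CPM in WT, without overlap. Cyct, the testis cytochrome c that carries electrons in the respiratory chain, had 19.3 and 13.6 CPM in KO and 11.5 and 13.8 CPM in WT, which overlapped. Cox6b2, a testis subunit of cytochrome c oxidase, had 17.1 and 13.3 CPM in KO and 6.37 and 10.5 CPM in WT, which did not overlap. Its mean of 11.8 ± 4.50 CPM (SD, n = 4) was the lowest of the members and still above that of 69.2% of all genes. Aldoart2, Aldoart1, Cyct and Cox6b2, in this order, differed from their neighbors by less than their spread over both genotypes. Among these neighbors, only the order of Cyct above Cox6b2 held in every library.

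**Figure D1:**
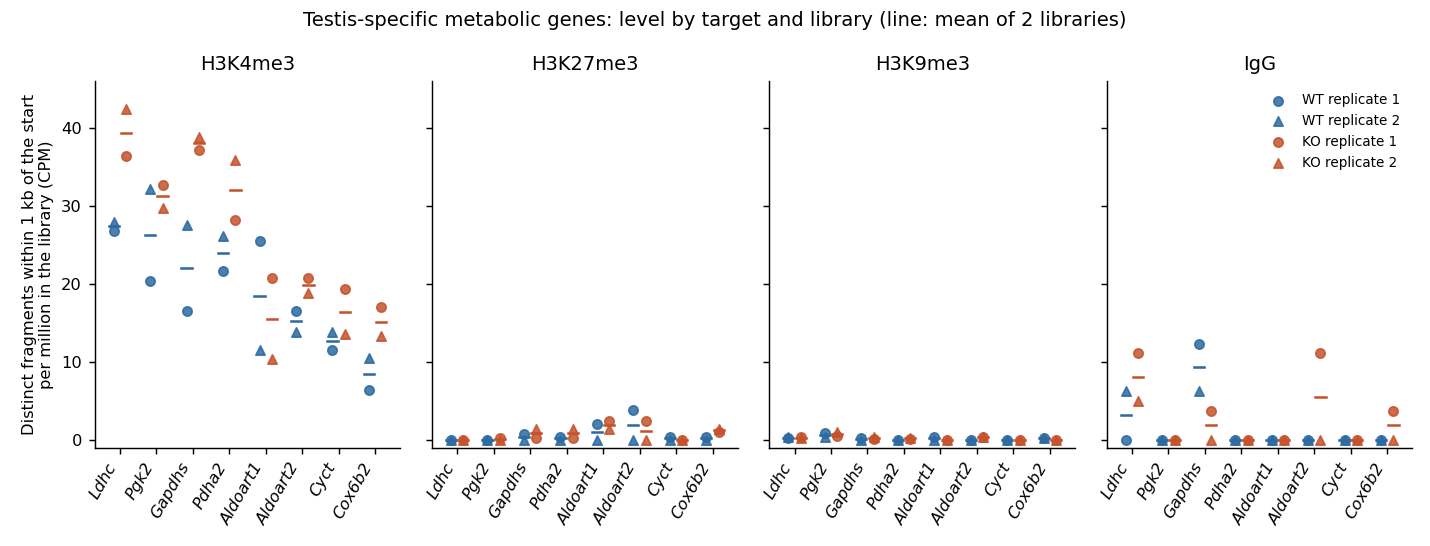
Level of each member within 1 kb of its start (CPM, vertical axis) in the 16 libraries, 1 panel for each target, with blue for WT, orange for KO, circles for replicate 1, triangles for replicate 2 and short lines for the mean of 2 libraries. H3K4me3 lay between 6.37 and 42.4 CPM, H3K27me3 and H3K9me3 stayed under 4 CPM, and the IgG points above 0 stand for 1 to 3 fragments.

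Against IgG, H3K4me3 was higher at the starts of 8 of 8 members (limma-voom over 12887 genes, Benjamini-Hochberg adjusted p under 0.05), where 73.6% of all genes tested were called higher. The members held 0 to 5 IgG fragments each and so passed the minimum of 10 fragments only with their H3K4me3 fragments, and the count is a description that the filter partly fixes. Without the minimum 7 of 8 members and 44.2% of 20560 genes were called. The largest adjusted p was 0.0277 for Aldoart2 and the smallest 0.000209 for Pgk2 and Pdha2. The fitted folds depend on the prior count and are not given. From pooled fragments, Ldhc had 275 fragments in H3K4me3 and 5 in IgG, a ratio of CPM of 5.65 (95% interval 2.39 to 17.5), and Gapdhs had 255 and 4, a ratio of 6.54 (2.52 to 24.2). Pgk2, Pdha2, Aldoart1 and Cyct had 0 IgG fragments in all 4 libraries, which allows up to 3 over the group. Their H3K4me3 level was at least 7.90-fold, 8.01-fold, 3.70-fold and 3.80-fold higher than that limit. Aldoart2 had 3 IgG fragments, a ratio of 4.62 (1.55 to 22.7), and Cox6b2 had 1, a ratio of 9.85 (1.73 to 393). These intervals and limits cover counting error only, and they are wide because the IgG libraries are shallow.

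The call over IgG depended on the scaling and on how fragments were counted. With either change only members with 0 IgG fragments stayed called. With median-of-ratios scaling 3 of 8 members were called (Pgk2, Pdha2 and Aldoart1), where 23.4% of genes were, and with every deposited fragment counted 4 of 8 were called (Pgk2, Pdha2, Aldoart1 and Cyct), where 45.9% of genes were. Leaving out the H3K4me3 and IgG libraries of KO replicate 1 took Ldhc above the threshold. Leaving out those of KO replicate 2 did so for Ldhc and Gapdhs. Over the gene bodies 7 of 8 members were called higher than IgG, where 44.3% of the 18411 genes tested were called, and the exception was Cox6b2 with an adjusted p of 0.168.

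H3K27me3 was close to absent from the members. Ldhc had 0 fragments in all 4 libraries, which allows up to 0.394 CPM over the group, and the pooled count was 1 for Pgk2 and for Cyct, 3 for Pdha2, 4 for Gapdhs and 6 for Cox6b2. The aldolase copies held more. Aldoart1 had 9 and 1 fragments in KO and 6 and 0 in WT, and Aldoart2 had 9 and 0 in KO and 11 and 0 in WT, so nearly all came from the replicate 1 libraries, which were the deeper pair. Their pooled levels, 2.10 and 2.63 CPM, were the highest among the members, and H3K4me3 exceeded H3K27me3 there by 6.66-fold in both (95% intervals 3.92 to 12.1 for Aldoart1 and 4.15 to 11.3 for Aldoart2). Neither was called higher than IgG (adjusted p = 0.684 and 0.190), where 65.2% of the 6707 genes tested were called. All 8 members together had 51 fragments or 6.70 CPM (4.99 to 8.81), while 8 times the mean of all genes was 56.4 CPM. That mean is carried by strongly marked genes. The median gene had 1 fragment in both replicate 1 libraries, as did the median member (0.263 CPM in KO and 0.346 CPM in WT), and in KO replicate 2 the median gene had 0 and the median member 0.702 CPM. In the shallow WT replicate 2 library all 8 were at 0, and in the other 3 libraries the sum was 5.62 to 7.61 CPM.

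H3K9me3 was lower still. Cyct had 0 of 23146258 fragments, which allows up to 0.130 CPM, and the pooled counts of the others ran from 2 for Pdha2, Aldoart1 and Cox6b2 to 15 for Pgk2. The sum over the members was 1.51 CPM (1.05 to 2.10), while 8 times the mean of all genes was 28.2 CPM. The median gene had 1 fragment in every library, and so had the median member in 3 of 4, at 0.148 and 0.191 CPM in KO and 0.163 CPM in WT replicate 1, while in WT replicate 2 the median member had 0. At the starts 0 of 2 tested members were called higher than IgG, where 0.325% of 4614 genes were. Over the gene bodies only 3 members could be tested for H3K9me3 and 4 for H3K27me3. None of these was called higher than IgG, where 4.92% and 27.8% of the genes were. Lower calls were not stable. Ldhc was called lower than IgG for H3K9me3 at its start, where 25.3% of genes were, but had an adjusted p of 0.261 with every deposited fragment counted. Over the bodies Ldhc and Pgk2 were called lower for H3K9me3 (63% of genes) and Ldhc for H3K27me3 (24.9%), and with median-of-ratios scaling the adjusted p rose to 0.157, 0.785 and 0.0763. Pgk2 had 0 IgG fragments over its body against 17 for H3K9me3. Its lower call therefore rests on the prior count in shallow IgG libraries and not on counted fragments.

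The shape of H3K4me3 separated the members more clearly than its level. At 6 of the 8 the mark formed a broad stretch that went on for several kilobases, and at Cyct and Cox6b2 it was a narrow peak. Of the fragments within 3 kb of the start, 73.5% at Cyct and 74.4% at Cox6b2 lay within 1 kb, against a median of 55.6% over the 12780 genes tested and 33.3% for an even spread. The share was 46.3% at Gapdhs, 46.2% at Pdha2, 43.7% at Pgk2, 41.5% at Ldhc, 37.0% at Aldoart2 and 33.6% at Aldoart1, all below the median gene. Among the genes tested, 7.21% had a lower share than Aldoart1, whose value was close to that of an even spread, and 12.1% than Aldoart2. For Ldhc, Pgk2, Pdha2 and Gapdhs 21.0% to 31.5% of genes were lower, and for Cyct and Cox6b2 78.6% and 79.9%. Many other genes thus had shares like those of most members.

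At the short single-exon genes the stretch ran past the annotated end. Pgk2 is 1626 bp long, and its H3K4me3 fragments in successive 1 kb steps from the start were 124, 128, 98, 145, 98, 46 and 6. In the 2 kb beyond its end the 4 libraries held 45 and 104 fragments in KO and 23 and 61 in WT, a level of 15.2 ± 1.16 CPM per kb, close to the 15.98 ± 0.918 CPM per kb over the gene itself (SD, n = 4). Pdha2 is 2352 bp long, and its steps held 139, 95, 111, 117, 127, 78, 78 and 19 fragments. Beyond its end the level was 16.1 ± 4.76 CPM per kb and over the gene 13.3 ± 3.64 CPM per kb. In both genes the mark thus dropped several kilobases after the last annotated base and not at it.

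Aldoart1 and Aldoart2 had 10.2 ± 2.05 and 11.7 ± 1.62 CPM per kb beyond their ends and 12.5 ± 3.996 and 9.74 ± 1.43 CPM per kb over the genes. In Aldoart1 the mark lay mainly downstream, since 71.3% of the fragments within 1 kb were after the start (95% interval 61.8 to 79.6), and the fullest 1 kb step was the one from 1 to 2 kb with 96 fragments. Aldoart2 was also marked before its start, with 62 and 63 fragments in the 2 steps preceding it against 72 in the first step after it. The intron-containing Cox6b2, 1303 bp long, had 0.705 ± 0.351 CPM per kb beyond its end. Cyct and Ldhc each had 1 fragment there in all 4 libraries, while Gapdhs had 46 fragments or 3.33 ± 1.19 CPM per kb. These ends lie at unlike distances from the starts, since Cyct, Gapdhs and Ldhc are 6509, 13907 and 16940 bp long. In the step from 5 to 6 kb, Pgk2, Pdha2, Aldoart1 and Aldoart2 held 46, 78, 20 and 19 fragments. Ldhc held 45 there, Gapdhs 64, Cyct 1 and Cox6b2 4, so at equal distance Ldhc and Gapdhs were marked too. The 2 kb beyond Pgk2, Aldoart1 and Aldoart2 held 0 IgG fragments, and those beyond Pdha2 held 3.

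Ldhc was marked on both sides of its start, with 112 and 134 fragments in the 2 steps before it and 141 and 125 in the 2 after it, and then declined over its 16940 bp body. Gapdhs stayed marked throughout the first 5 kb, with 139, 94, 127, 88 and 142 fragments, the last of these steps being the one that holds the second start. H3K27me3 added little to these regions, with 9 to 90 fragments per member within 10 kb against 192 to 1052 for H3K4me3. Pgk2 had 282 H3K9me3 fragments within 10 kb, the most among the members, at a level of 12.2 CPM where IgG had 16.4 CPM.

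**Figure D2:**
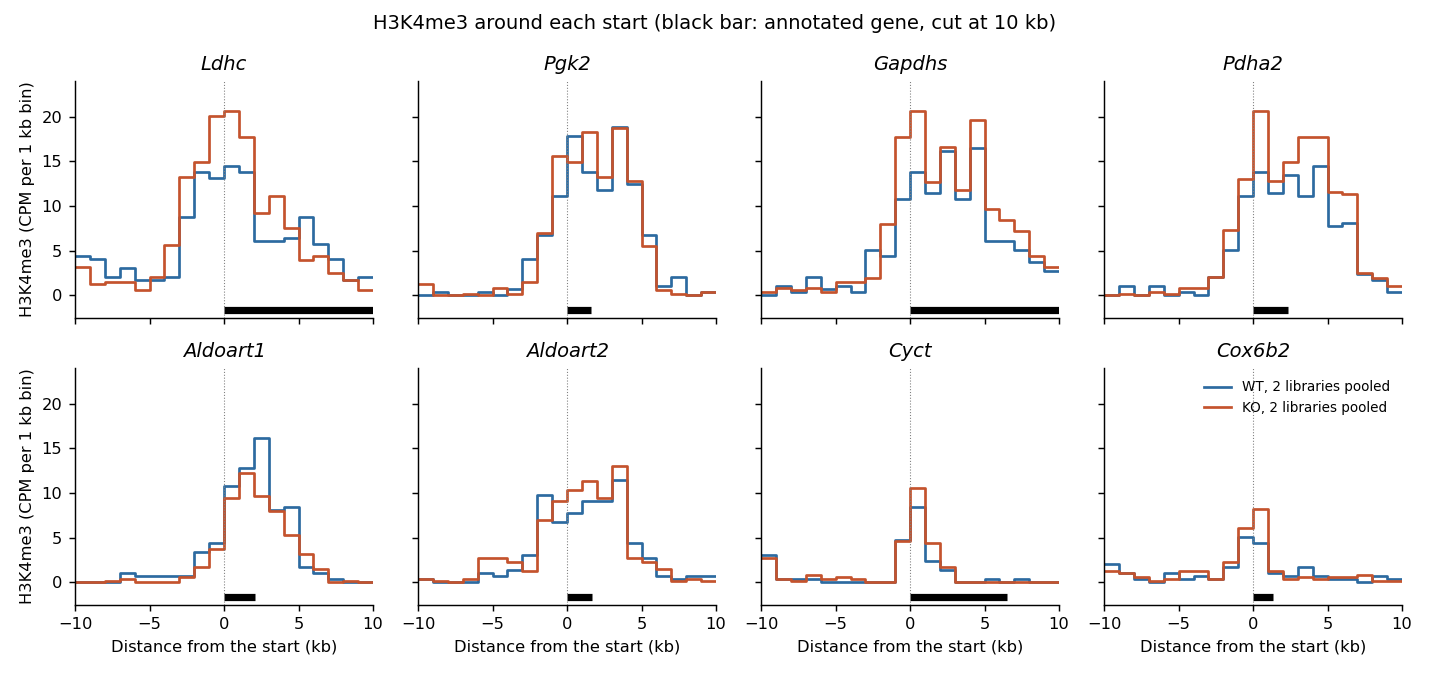
H3K4me3 from 10 kb before to 10 kb after each member's start (CPM per 1 kb bin, 2 libraries pooled for each line, blue for WT and orange for KO), with the annotated gene as a black bar. The mark extends beyond the bar at Pgk2, Pdha2, Aldoart1 and Aldoart2 and is a narrow peak at Cyct and Cox6b2, in both genotypes.

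The somatic counterparts were marked unevenly. Of 10 such genes, 4 had enough fragments to be tested for H3K4me3 against IgG and all 4 were called, which the filter partly fixed here and in the lists below as it did for the members: Pgk1 (10.5 CPM over 4 libraries), Aldoa (13.7 CPM), Cycs (14.4 CPM) and Cox6b1 (12.1 CPM). The levels of Pgk2 in the 4 libraries (20.4 to 32.6 CPM) did not overlap with those of Pgk1 (6.37 to 13.4 CPM). Pgk1 and Pdha1 are X-linked and only the X-bearing spermatids carry them, and no level was corrected for this. Cyct and Cycs, the testis and somatic cytochromes c, were alike in mean, at 14.5 and 14.4 CPM, and Cox6b2 and Cox6b1 differed by less than the spread of Cox6b2. Aldoart1 and Aldoart2 overlapped with Aldoa, which had 11.9 to 16.96 CPM. Ldha, Ldhb, Gapdh, Pdha1 and Aldoc had 0.0736 to 1.30 CPM.

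Part of this depended on where the start was placed. Around a RefSeq start of Ldha 5607 bp downstream of the GENCODE start the level was 16.5 CPM against 0.652 CPM, and around one of Aldoa 1573 bp downstream it was 18.1 CPM, above the means of both aldolase copies. Ldhb, Gapdh, Pdha1 and Aldoc stayed low at their highest RefSeq start, with Gapdh at 1.69 CPM, Pdha1 at 1.30 CPM and Aldoc at 0.777 CPM. Pdha1 and Pdha2, the X-linked gene and its autosomal copy, thus had 1.30 and 28.0 CPM, and Gapdh and Gapdhs had 1.69 and 30.02 CPM. For the members the choice of RefSeq start moved the level by less than the replicate spread.

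Ldhb, the heart-type lactate dehydrogenase subunit, was the 1 counterpart with enough fragments at its start to be tested for H3K27me3 over IgG, and it was called (adjusted p = 2.59e-05), as were 65.2% of genes. It had 0 IgG fragments there and passed the minimum only with its H3K27me3 fragments, so the filter itself fixed the direction of that call. Its H3K27me3 level was 46.4 to 89.8 CPM in the 4 libraries, while Ldhc had 0 H3K27me3 fragments.

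The 9 other testis-specific metabolic genes resembled the members in H3K4me3 at their starts. All 9 were called for H3K4me3 over IgG, where 73.6% of all genes were, with means of 14.8 CPM for G6pd2 to 30.6 CPM for Gykl1 and a median of 19.5 CPM, against 22.7 CPM over the members and 3.24 CPM over all genes. They include Slc25a31 (19.5 CPM), the sperm ADP/ATP carrier, Cox7b2 (20.7 CPM) and Cox8c (18.2 CPM), testis subunits of cytochrome c oxidase, Gk2 (17.8 CPM), a glycerol kinase, Eno4 (20.5 CPM), a sperm enolase, Ldhal6b (18.4 CPM) and Atp1a4 (23.3 CPM), the sperm sodium pump subunit. None had enough H3K27me3 fragments within 1 kb of the start to be tested. Over the bodies 4 of them were tested for H3K27me3 against IgG. Of these, 1 was called higher (27.8% of genes) and 1 lower (24.9%), and of the 4 members tested 0 and 1 were.

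Of 15 broadly expressed genes of glycolysis and respiration, 14 could be tested and 11 were called for H3K4me3 over IgG, near the 73.6% of all genes, led by Hk1 (34.7 CPM), the hexokinase that starts glycolysis, Pkm (28.6 CPM) and Cox8a (21.9 CPM). For H3K27me3 5 of the 15 could be tested. Among the 6707 genes tested, 65.2% were called higher than IgG and 258 genes were called lower. Pfkl, the liver-type phosphofructokinase, and Slc25a4, an ADP/ATP carrier, were called higher, with means of 52.7 and 14.2 CPM. The filter partly fixed these higher calls too. Pkm was called lower (adjusted p = 0.00204), against IgG libraries that are shallow. Slc25a4 had 1.65 CPM of H3K4me3, and Slc25a31, its sperm relative, had 0.0865 CPM of H3K27me3.

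**Figure D3:**
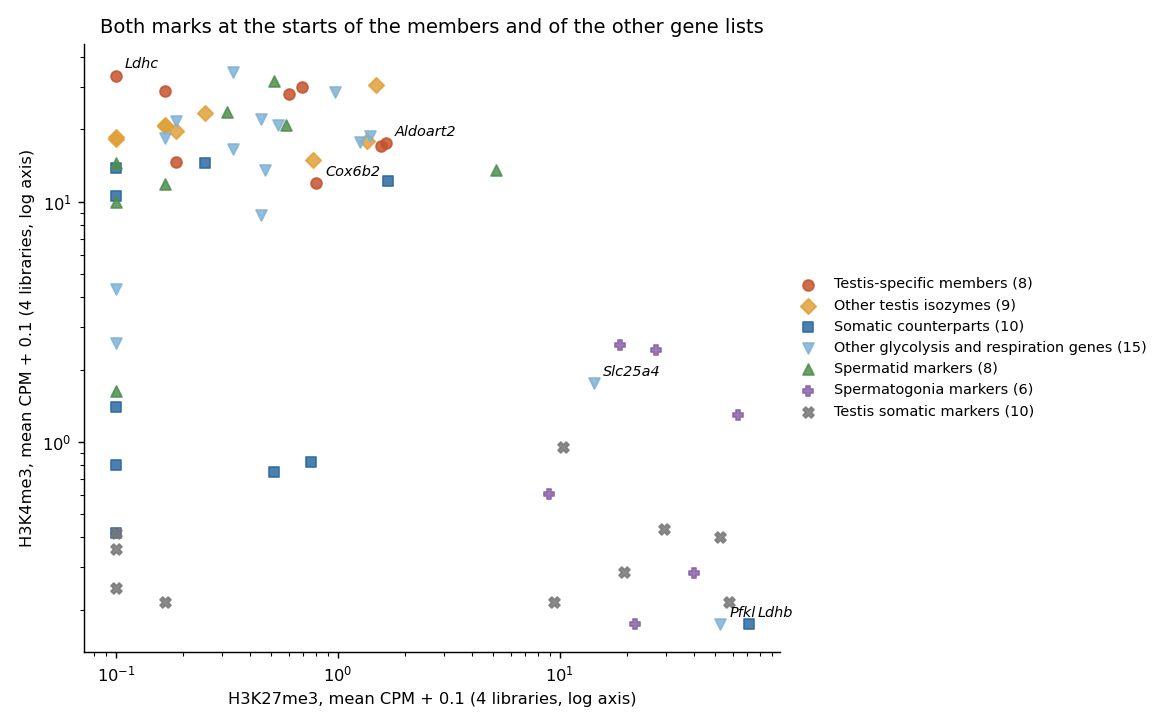
Mean H3K27me3 (horizontal) against mean H3K4me3 (vertical) within 1 kb of the GENCODE start, as CPM plus 0.1 over 4 libraries on log axes, with 1 symbol for each gene list. The 8 members lie at the upper left with 11.8 to 33.4 CPM of H3K4me3, while Ldhb and Pfkl lie at the lower right among spermatogonia and somatic markers.

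H3K4me3 at the members was compared between KO and WT to ask whether loss of H2A.B altered it. The fitted differences were above 0 for 7 of 8 members and 0 of 8 were called, where 0% of the 12780 genes tested were. Gapdhs had the largest difference, 0.70 ± 0.35 on the log2 scale (SE), followed by Cox6b2 (0.65 ± 0.42), Ldhc (0.48 ± 0.35), Aldoart2 (0.43 ± 0.36), Pdha2 (0.35 ± 0.34), Cyct (0.25 ± 0.37) and Pgk2 (0.22 ± 0.35). Aldoart1 was at -0.13 ± 0.39. All 8 had an adjusted p of 0.999, and without adjustment 402 genes were under 0.05 and no member was, Gapdhs being closest at 0.0532. The median over the members was 0.39 and over all genes tested 0.17, so the median gene was also above 0.

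Both KO libraries were above both WT libraries at 5 of 8 members (Ldhc, Gapdhs, Pdha2, Aldoart2 and Cox6b2), and this held for 27.8% of the 12780 genes. Both KO libraries were below both WT libraries at 0 of 8 members and at 6.77% of the genes. Within sibling pairs, Gapdhs was 2.24-fold and 1.41-fold higher in KO, Cox6b2 2.68-fold and 1.26-fold, Ldhc 1.36-fold and 1.52-fold, Pdha2 1.30-fold and 1.38-fold and Aldoart2 1.25-fold and 1.37-fold. Pgk2 and Cyct were higher in KO in pair 1 only, with ratios of 1.60 and 0.927 for Pgk2 and of 1.68 and 0.985 for Cyct, and Aldoart1 was lower in both pairs, with ratios of 0.815 and 0.899. In each pair the KO library also held more distinct H3K4me3 fragments than the WT library, 1347748 against 784360 and 3394830 against 2181065. The summed H3K4me3 level over the spermatid markers was 131 to 147 CPM in KO and 103 to 126 CPM in WT. It was 2.06 to 3.71 and 3.21 to 17.8 CPM over the spermatogonia markers, and 2.97 to 3.53 and 1.27 to 3.21 CPM over the testis somatic and blood markers. The part of depth and of cell mixture in the differences was not tested.

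With median-of-ratios scaling the median of all genes moved to -0.02 and 7 of 8 members stayed above 0, between 0.01 for Pgk2 and 0.49 for Gapdhs. The directions of Pgk2 and Aldoart1 were not stable. Pgk2 was at -0.046 without WT replicate 1, and Aldoart1 was at 0.44 without KO replicate 2 and at 0.16 without WT replicate 1. Leaving out 1 library leaves its sibling unpaired, and within both sibling pairs Aldoart1 was lower in KO.

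**Figure D4:**
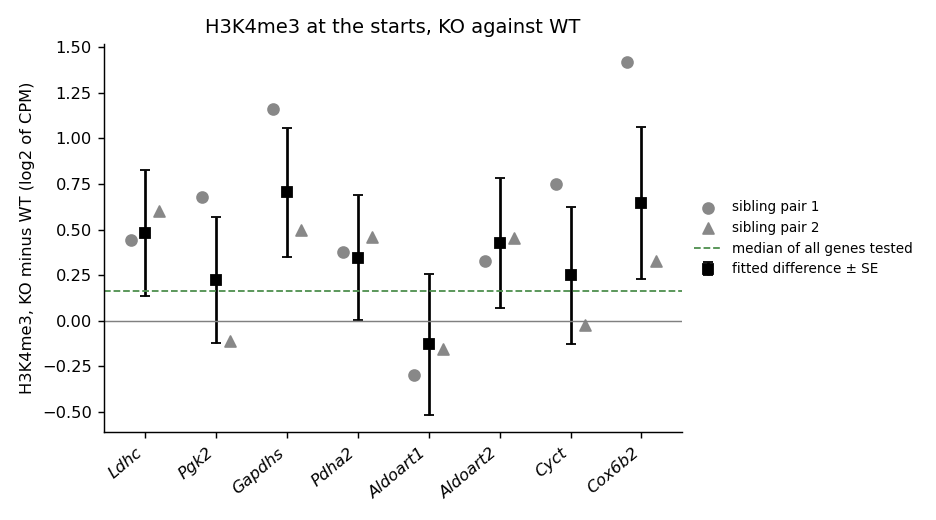
Difference in H3K4me3 between KO and WT at each member's start (log2 of CPM), with black squares and bars for the fitted difference ± SE (2 libraries in each genotype), gray circles and triangles for the ratios within sibling pairs 1 and 2 and a dashed line for the median of all genes tested, 0.17. The squares of 7 members lie above 0 and Aldoart1 lies below it.

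Over the gene bodies 6 of 8 members had a positive H3K4me3 difference, from 0.25 for Ldhc to 0.91 for Cox6b2, with Pgk2 at -0.07 and Aldoart1 at -0.12 (and Ldhc at -0.060 without WT replicate 1), and 0 of 8 were called, where 0% of 18143 genes were and 51 were under an unadjusted 0.05. For H3K27me3 the 2 members that could be tested at the start, Aldoart1 and Aldoart2, had differences of -0.06 ± 0.98 and -1.31 ± 0.97 (SE), and for H3K9me3 the 1 member tested, Pgk2, had 0.04 ± 0.76. None was called, nor was any of the 3 members tested over the body for either mark, where 0% of genes were called in each comparison. Without adjustment no member was under 0.05 in these comparisons. Standard errors near 1 on the log2 scale mean that differences of several fold could not have been detected there. No member had enough IgG fragments to be tested at its start.

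Small, sub-nucleosomal fragments of at most 120 bp were then compared with large ones of at least 150 bp. The paper reported relatively more sub-nucleosomal fragments in KO spermatids for each mark and attributed them to partly unwrapped nucleosomes. It described the fragments it recovered as much smaller than the footprint of H2A.B nucleosomes, given as approximately 120 bp. The small class used here reaches up to that size, so it is wider. For H3K4me3 the paper also reported that such fragments reached further into the nucleosome in KO and were enriched over transcription starts. Position within nucleosomes was not examined here. In the H3K4me3 libraries the 8 starts together held 131 small and 140 large fragments in KO replicate 1, 267 and 373 in KO replicate 2, 42 and 69 in WT replicate 1 and 103 and 225 in WT replicate 2. Small fragments were thus 48.3% (95% exact binomial interval 42.3 to 54.5), 41.7% (37.9 to 45.6), 37.8% (28.8 to 47.5) and 31.4% (26.4 to 36.7) of both classes. The share was higher in KO within both sibling pairs.

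Summed over the members, the log2 ratio of small to large was 0.63 higher in KO, 0.61 in pair 1 and 0.64 in pair 2, with an SD of 0.28 between replicates. Over the starts of all protein-coding genes the same difference was 0.81, and over the whole libraries 0.88, in the same direction. With every deposited fragment counted the values were 1.15 for the members, 1.08 for all starts and 1.10 for the libraries, and over gene bodies they were 0.97 for the members and 0.84 for all genes. In WT the members had a larger share of small fragments than all gene starts, which had 29.1% and 24.5%, and in KO the all-gene values were 39.6% and 38.2%. The interval of the members lay above the all-gene value in WT replicate 2 and in KO replicate 1 and included it in WT replicate 1 and KO replicate 2. These intervals cover counting error only, and not the spread between members or animals. With 2 libraries in each genotype the smallest p an exact two-sided permutation test can give is 0.333, and none was run on the sums.

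**Figure D5:**
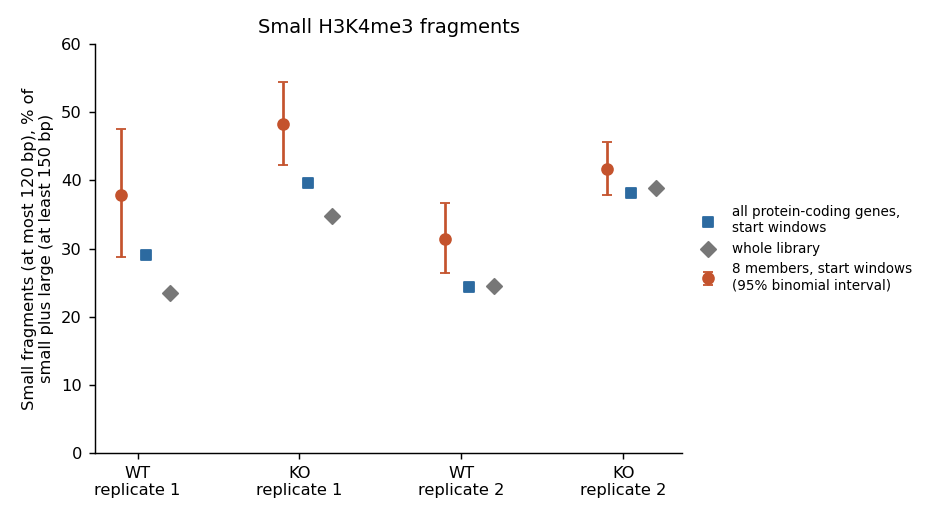
Small fragments as a percentage of small plus large fragments in the 4 H3K4me3 libraries, ordered by sibling pair, for the 8 members (circles, 95% exact binomial interval), the starts of all protein-coding genes (squares) and the whole library (diamonds). The circles read 37.8% and 48.3% in WT and KO of pair 1 and 31.4% and 41.7% in pair 2.

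By member, pooled over 2 libraries, the share of small fragments ran in WT from 22.9% at Cyct (10.4 to 40.1) to 48.8% at Aldoart2 (32.9 to 64.9) and in KO from 27.4% at Aldoart1 (16.9 to 40.2) to 53.4% at Aldoart2 (42.5 to 64.1). It was higher in KO at 7 of 8 members, among them Pdha2 with 30.4% in WT and 49.7% in KO and Pgk2 with 34.5% and 51.8%. Aldoart1 went the other way, with 32.6% and 27.4%. After subtracting each library's median over the gene starts tested, the fitted small-to-large ratio differed by between -1.13 ± 0.59 for Aldoart1 and 0.28 ± 0.43 for Pdha2 (SE, log2 scale). It was above 0 at 3 of 8 members, with a median of -0.19 against -0.04 over all genes, and 0 of 8 members were called, where 0.0101% of 9864 genes were and 425 genes were under an unadjusted 0.05. The unadjusted p of Aldoart1 was 0.0563. For the other antibodies the 8 starts held at most 25 fragments of both classes in a library, too few for a ratio by member.

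Among 14797 genes with at least 50 fragments over the 16 libraries, the gene whose log2 CPM followed each member most closely was Gskip for Ldhc (Pearson r = 0.997), E4f1 for Pgk2 (0.998), Haus5 for Gapdhs (0.989), Efcab10 for Pdha2 (0.999), Htr5b for Aldoart1 (0.997), Cerk for Aldoart2 (0.987), Atf7 for Cyct (0.999) and Stard10 for Cox6b2 (0.994). These correlations are across 16 libraries that share 4 antibodies and 4 animals, and what drives them was not tested. The closest gene was often 1 of many: 1460 genes had r over 0.99 with Cyct, 409 with Pgk2 and 360 with Pdha2, but 0 with Gapdhs or Aldoart2.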

How the data were processed

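The authors deposited 1 list of mapped fragments per library (chromosome, start, end and length), with no scores. Reads were paired-end and 25 bases long. The paper's methods name Bowtie2 and removal of duplicates, and the submitters' processing notes give mm10 and Bowtie2 2.3.4.3, a version other than that in the methods. The lists still held fragments with identical coordinates, 33.6% to 83.4% of nuclear fragments per library, so each was counted once. All fragments on 21 chromosomes lay within the GRCm38 lengths. Fragments were assigned by midpoint to GENCODE vM21 genes with Python 3.11.15, NumPy 2.4.6, SciPy 1.17.1 and pandas 2.3.3. Start windows and gene bodies with at least 10 fragments over the fitted libraries were tested by limma-voom (R 4.3.3, limma 3.58.1), scaled to all distinct nuclear fragments, with Benjamini-Hochberg adjustment over all genes and a threshold of 0.05. Each target was fitted alone for KO against WT. Against IgG, the mark and IgG libraries of both genotypes were fitted together. The small-to-large ratio used a pseudocount of 0.5. The fits were tested on simulated data.

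Same-numbered KO and WT libraries came from sibling pairs. Their deviations from the group means correlated within each target, with r of 0.195 to 0.298 for the 3 marks and 0.215 for IgG at starts, and 0.149 to 0.585 over bodies. The replicate block is an alternative. The members and lists were chosen with earlier results of these data known. Named were all members, list genes called in a comparison (not all of them) or otherwise the 3 of each list with the highest WT H3K4me3, the most correlated gene of each member, and genes within 1 kb of a member's start. Profiles beyond 1 kb, RefSeq starts and the comparison of the Gapdhs starts were added after the data were examined. The values of 1 gene of the lists are not reported here.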

Additional observations from a re-analysis of the deposited data

How the results depend on the processing

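At starts, the number of members called for H3K4me3 over IgG was 8 as reported, 4 with every deposited fragment counted and 3 with median-of-ratios scaling. Leaving out the H3K4me3 and IgG libraries of 1 animal also lost members in some cases, and the cause was not tested. Without a minimum count Aldoart2 missed the threshold (adjusted p = 0.0506). Over gene bodies the number called was 7 as reported, and leaving out both libraries of 1 animal could lower it. No alternative called a member between KO and WT. The summed small-to-large ratio of the members (KO minus WT, log2) for H3K4me3 was 0.63, rising to 1.15 with every deposited fragment (whole libraries 0.88 and 1.10) and 0.97 over gene bodies, and it was 0.61 to 0.64 with 1 replicate left out. With 1 replicate left out it was 0.87 to 2.93 for H3K9me3, 1.22 to 2.85 for H3K27me3 and -3.70 to 0.74 for IgG, all from at most 25 fragments per library. The H3K27me3 library of WT replicate 2 had 0 member fragments, so its ratio is set by the pseudocount alone.

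Besides the summed IgG ratio, signs turned in differences of single members, none of them called. For KO against WT in H3K4me3 at starts, with single libraries left out, Pgk2 ranged from -0.046 to 0.61 and Aldoart1 from -0.89 to 0.44, and counting every deposited fragment put Pgk2 at -0.0036. Over bodies Ldhc ranged from -0.060 to 0.71 and Aldoart1 from -0.73 to 0.20, and Pgk2 was at 0.073 when any overlap counted. In H3K9me3 at starts Pgk2 ranged from -0.50 to 0.51 and was at -0.16 with every deposited fragment. In H3K27me3 at starts Aldoart1 ranged from -0.076 to 0.066 and was at 0.93 with every deposited fragment, 0.050 with no minimum, 0.078 with median-of-ratios scaling and 0.014 with the replicate block. For the small-to-large ratio, single libraries left out gave ranges of -0.89 to 0.71 for Ldhc, -0.054 to 0.39 for Pgk2, -1.05 to 0.20 for Cyct and -1.02 to 0.38 for Cox6b2. Counting every deposited fragment put Ldhc at 0.37, dropping the weights put Cox6b2 at -0.33, and narrowing the window to 500 bp put Pdha2 at -0.085, Aldoart2 at 0.054 and Cox6b2 at -0.036.

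With the replicate block for the sibling pairs, 8 members were called for H3K4me3 over IgG at starts, 7 over bodies and 0 between KO and WT, so it changed none of these counts. Among all genes between KO and WT it called 45 for H3K9me3 and 37 for IgG over bodies, 1 for H3K27me3 at starts, and 12 and 2 for the small-to-large ratios of H3K9me3 and H3K27me3, where 0 were called without it. For H3K4me3 the block raised the number of genes under an unadjusted 0.05 from 402 to 988 at starts and from 51 to 973 over bodies. Small counts limit the H3K27me3, H3K9me3 and IgG values, most of which rest on fewer than 10 fragments per member. Low depth adds to this for IgG and for the H3K27me3 library of WT replicate 2. The H3K9me3 libraries were the deepest of any target, with 5009169 to 6746382 distinct fragments.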
